A study of Mus musculus with 2 samples.

Results

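The 10 basement membrane genes described here are Col4a1, Col4a2, Col15a1, Col18a1, Lama4, Lamb1, Lamc1, Nid1, Nid2 and Hspg2. They were taken by name from the 17139 genes listed for endothelial cells (ECs) of implanted Lewis lung carcinoma (LLC) tumours, a transplantable mouse lung cancer, and all 10 were detected in both libraries. The tumours were grown in male C57BL/6J mice implanted at 8 to 9 weeks of age. They were injected once with 70 µl PBS, or with the same volume holding 14 µg cGAMP, the cyclic dinucleotide that activates the innate immune sensor STING. Live ECs that carried CD31 and lacked CD45 were sorted from 1 mouse per treatment, so each library is 1 animal, cells that had died or detached were not measured, and no test between treatments was possible. The interval from injection to sampling is given as 24 h in the methods and as 6 h elsewhere in the supplement. All intervals below are at the 95% level and cover counting error only, not differences between mice.

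A basement membrane is the thin sheet of matrix on which ECs sit and which separates them from mural cells and tissue. Collagen IV chains and laminin trimers each form a network, nidogens bind to both, and the heparan sulphate proteoglycan perlecan (Hspg2) links them further and binds growth factors. Collagens XV and XVIII are collagens of vascular basement membranes. Collagen XVIII carries heparan sulphate, and its end fragment is endostatin. ECs secrete much of this sheet themselves, and it is remodelled when tumour vessels sprout.

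The PBS library held 2517 ECs and 92081146 unique molecular identifiers (UMIs, 1 per captured transcript), and the cGAMP library held 1340 ECs and 63366746 UMIs. Median depth was 29780 and 41178 UMIs per cell, and the median mitochondrial share was 4.49% and 2.87%. In cells with at most 5% mitochondrial UMIs (1662 and 1248) the summed ratio given below was -0.49, and in cells thinned to equal depth -0.48. All 8 pan-endothelial markers were present in both libraries, with Pecam1 at 944 and 824 UMIs in 1000000 UMIs of the library (CPM) and Cdh5 at 1146 and 1008 CPM. In all, 2481 PBS-treated and 1304 cGAMP-treated ECs had UMIs of Pecam1 and Cdh5 and none of Ptprc, which encodes CD45. The 8 clusters, formed without the 10 genes, were grouped into stalk-like ECs (Ackr1, Selp; 302 PBS-treated and 325 cGAMP-treated cells), tip-like ECs (Pgf, Cxcr4; 486 and 188), proliferative ECs (Mki67, Mcm5; 673 and 315) and arterial ECs (Gja4, Gja5; 357 and 182). A cluster led by Ramp3, Igfbp3 and Esm1 and a small cluster led by Igfbp5, Ctsh and Adamts8 were left unnamed. The small cluster had 12 stalk-like markers raised, but its leading genes held 0 stalk-like markers and 1 arterial marker.

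The basement membrane genes together were lower in the cGAMP library. They supplied 0.653% of all UMIs with PBS, compared with 0.460% with cGAMP, a log2 ratio of -0.50 (interval -0.51 to -0.50). Of the 10 genes, 8 were lower, beside 59.6% of all genes, and 2, Col15a1 and Nid1, were higher. Of the lower genes, 4 passed a 1.5-fold difference, namely Col4a1, Col4a2, Nid2 and Hspg2, where 7.41% of the 9509 genes that reached 5 CPM in 1 library or both did so. None of the 10 was 1.5-fold higher, where 4.53% of all genes were. The median log2 ratio of the 10 genes was -0.38 (interval -0.65 to 0.09, from the order of the 10 values) beside -0.08 for all genes. The 4 genes lay between 1.56-fold and 1.59-fold lower, close to the threshold, and the 2 libraries held different shares of the EC classes. With class proportions held equal, 2 of the 10 genes, Col4a1 and Col4a2, were past 1.5-fold, and the median was -0.25. With median-of-ratios scaling only Col4a2 was (-0.60), while Col4a1 (-0.58), Nid2 (-0.57) and Hspg2 (-0.57) fell short of it.

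**Figure D1:**
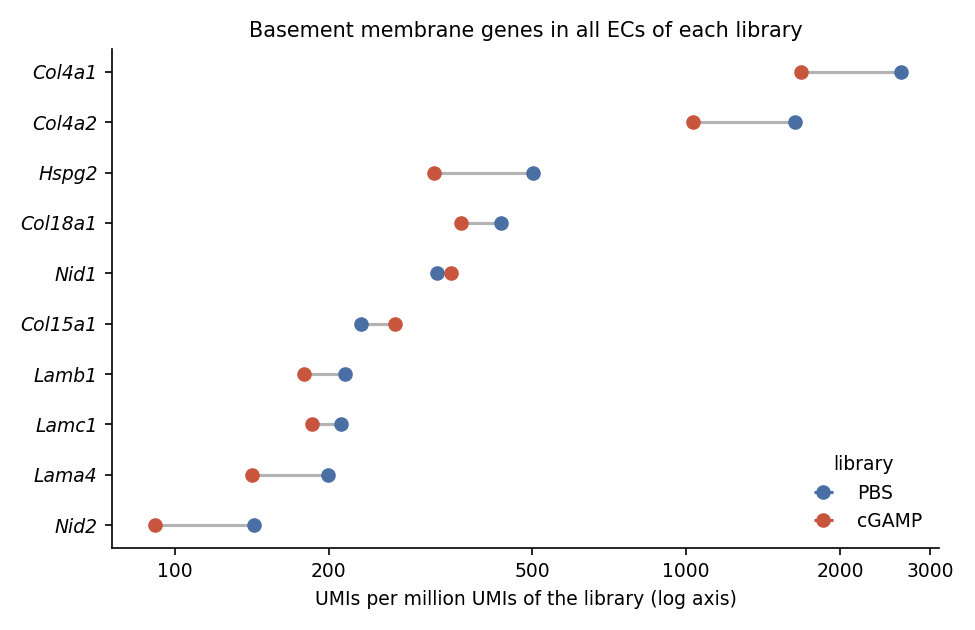
Level of each basement membrane gene in all ECs of the PBS library (blue) and of the cGAMP library (red), in CPM on a log axis, with counting intervals that are narrower than most points. The cGAMP point lies left of the PBS point for 8 genes, and right of it for Nid1 and Col15a1.

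The collagen IV chains were lower after cGAMP in every EC class. Col4a1, which encodes the α1 chain, was at 2630 CPM (2620 to 2641) in the PBS library and 1675 CPM (1665 to 1685) in the cGAMP library, 1.57-fold lower, with a log2 ratio of -0.65 (-0.66 to -0.64). Col4a2, which encodes the α2 chain of the same heterotrimer, was at 1635 CPM and 1031 CPM, 1.59-fold lower, with a log2 ratio of -0.67 (-0.68 to -0.65). The CPM of both were therefore lower by a similar share in the cGAMP library, 36.3% and 37.0%. In stalk-like ECs Col4a1 was at 2045 and 1306 CPM in the PBS and cGAMP libraries, and in tip-like ECs at 2862 and 1901 CPM. In proliferative ECs it was at 2299 and 1589 CPM, and in arterial ECs at 3340 and 2060 CPM. The highest cGAMP value of Col4a1 in any class, in arterial ECs, was at about the lowest PBS value, in stalk-like ECs. The log2 ratios of Col4a1 ranged from -0.70 in arterial to -0.53 in proliferative ECs, and those of Col4a2 from -0.75 to -0.52 in the same classes. Across the 5 other ways of forming the classes every one of these ratios stayed below 0, the nearest being -0.20 for Col4a2 in stalk-like ECs without integration of the libraries.

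The UMIs of the collagen IV chains also kept nearly the same proportion. There were 1.61 Col4a1 UMIs (1.60 to 1.62) for each Col4a2 UMI with PBS and 1.63 (1.61 to 1.64) with cGAMP. By class this ratio lay between 1.49 in PBS-treated tip-like ECs and 1.69 in PBS-treated stalk-like ECs. Across the 2517 PBS-treated ECs the log-normalised values of the 2 genes had a Pearson r of 0.83, and across the 1340 cGAMP-treated ECs 0.81, and each gene was the other's closest partner among 6045 genes with at least 20 CPM in a library. Col4a1 (chr8:11198423-11312826, minus strand) and Col4a2 (chr8:11312805-11449287, plus strand) lie head to head in the GRCm38 annotation, and their first exons overlap by 22 bases on opposite strands. The overlap is shown because it is the stretch from which both transcripts start. It is taken from RefSeq's GRCm38.p6 start-site windows, on the plus strand at chr8:11312801-11312830, with the 22 shared bases in capitals.
Col4a1 and Col4a2 starts: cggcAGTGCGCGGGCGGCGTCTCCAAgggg

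Laminin genes differed between classes more than between libraries. Lama4 encodes the α4 chain, which with the β1 chain (Lamb1) and the γ1 chain (Lamc1) forms a main laminin of vascular basement membranes. Lama4 was at 199 CPM (197 to 202) in the PBS library and 141 CPM (138 to 144) in the cGAMP library, a log2 ratio of -0.50 (-0.53 to -0.46). Lamb1 was at 215 and 179 CPM, with a ratio of -0.27 (-0.30 to -0.23), and Lamc1 at 211 and 185 CPM, with a ratio of -0.19 (-0.22 to -0.15). None of the 3 reached 1.5-fold over all ECs. With class proportions held equal the ratios were nearer to 0, at -0.25 for Lama4, -0.11 for Lamb1 and -0.03 for Lamc1.

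Among the named classes, the 3 laminin genes were highest in tip-like ECs and lowest in stalk-like ECs of both libraries. In the unnamed cluster led by Ramp3, Igfbp3 and Esm1, Lamc1 with cGAMP was at 246 CPM, above tip-like ECs at 230 CPM. In the small unnamed cluster with cGAMP, Lama4, Lamb1 and Lamc1 were below stalk-like ECs, at 28.2, 62.0 and 76.1 CPM. In the PBS library Lama4 was at 384 CPM in tip-like, 160 CPM in proliferative, 133 CPM in arterial and 41.8 CPM in stalk-like ECs, a 9.18-fold range. In the cGAMP library it was at 272 CPM in tip-like, 132 CPM in arterial, 124 CPM in proliferative and 62.3 CPM in stalk-like ECs, a 4.37-fold range, and the intervals of arterial and proliferative ECs overlapped. Lamb1 in tip-like over stalk-like ECs was 3.45-fold with PBS and 1.99-fold with cGAMP, and Lamc1 2.71-fold and 2.03-fold. The log2 ratios of cGAMP over PBS were below 0 in tip-like ECs, at -0.50 for Lama4, -0.46 for Lamb1 and -0.35 for Lamc1. They were above 0 in stalk-like ECs, at 0.58 for Lama4, 0.33 for Lamb1 and 0.07 for Lamc1, the last with an interval that included 0 (-0.05 to 0.19). The stalk-like direction depended on how the class was formed. When each cell was assigned by its marker ranks instead of by cluster, which raised the class to 607 PBS-treated and 437 cGAMP-treated cells, the values were -0.20 for Lama4, -0.05 for Lamb1 and -0.20 for Lamc1. Without integration of the libraries they were further above 0, at 1.06, 0.70 and 0.36. The tip-like ratios of the 3 genes stayed below 0 in all 5 alternatives.

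The partner laminin chains were lower too. Lama5, the other α chain of vessel walls, was at 53.6 CPM in the PBS library and 38.4 CPM in the cGAMP library, and Lamb2, a β chain alternative to β1, at 39.6 and 20.1 CPM. Lama5 was lower in all 4 classes, with log2 ratios from -0.76 in tip-like to -0.45 in proliferative ECs. For each Lama5 UMI there were 8.13 Lama4 UMIs in PBS-treated tip-like ECs and 0.573 in PBS-treated stalk-like ECs, which became 9.79 and 1.30 in the cGAMP library. For each Lamb2 UMI there were 5.45 Lamb1 UMIs (5.26 to 5.64) over all PBS-treated ECs and 8.90 (8.40 to 9.43) over all cGAMP-treated ECs.

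The 2 nidogens differed from each other. Nid1 and Nid2 encode glycoproteins that bind laminin γ1 and collagen IV. Nid1 was at 326 CPM (323 to 330) in the PBS library and 346 CPM (342 to 351) in the cGAMP library, a log2 ratio of 0.09 (0.06 to 0.11). Nid2 was at 143 CPM (140.3 to 145) and 91.6 CPM (89.2 to 93.9), 1.56-fold lower, with a ratio of -0.64 (-0.69 to -0.60). Nid1 was nearly level across classes, between 267 CPM in stalk-like and 345 CPM in tip-like ECs of the PBS library and between 318 CPM in proliferative and 357 CPM in arterial ECs of the cGAMP library. Its log2 ratio was 0.36 (0.29 to 0.44) in stalk-like, 0.12 (0.04 to 0.20) in arterial, 0.05 (0.01 to 0.10) in proliferative and -0.01 (-0.07 to 0.05) in tip-like ECs. Over the alternative classings the stalk-like value of Nid1 ranged from 0.20 to 0.37. Nid2 had the widest range of the 10 genes, from 18.9 CPM (15.9 to 22.3) in stalk-like to 318 CPM (311 to 326) in tip-like ECs of the PBS library, which is 16.9-fold. In the cGAMP library it ran from 26.0 CPM (23.4 to 28.8) to 189 CPM (181 to 198), which is 7.28-fold. There were 1.08 Nid1 UMIs for each Nid2 UMI in PBS-treated tip-like ECs, 1.80 in cGAMP-treated tip-like ECs, and 14.1 and 13.2 in stalk-like ECs.

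The direction of Nid2 depended on the class. It was lower after cGAMP in tip-like ECs (log2 ratio -0.75, interval -0.83 to -0.67) and proliferative ECs (-0.50). In arterial ECs it was higher, at 71.6 and 106 CPM (0.56, interval 0.40 to 0.73), and it was also higher in stalk-like ECs (0.46, interval 0.18 to 0.75). Over the alternative classings the arterial value ranged from 0.36 to 0.59, whereas the stalk-like value ranged from -0.44 with classes assigned by marker ranks to 1.45 without integration. With class proportions held equal the all-EC ratio of Nid2 was -0.32. Nid2 shares 437 exon bases with Rtraf on the opposite strand, and Nid1 shares 143 with the antisense gene Gm48682. Reads from these stretches could be assigned to either gene only if the counting ignored strand. Whether the counting used strand is not given in the sources used here.

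Perlecan was lower after cGAMP in all classes. Hspg2, which encodes its core protein, was at 501 CPM (497 to 506) in the PBS library and 321 CPM (316 to 325) in the cGAMP library, 1.56-fold lower, with a log2 ratio of -0.64 (-0.67 to -0.62). In tip-like ECs it was at 722 and 418 CPM in the PBS and cGAMP libraries, with a ratio of -0.79 (-0.84 to -0.74), the lowest of the 10 genes in that class, although its interval overlapped that of Nid2. In stalk-like ECs it was at 349 and 281 CPM, with a ratio of -0.31 (-0.38 to -0.24). In proliferative ECs it was at 449 and 309 CPM, and in arterial ECs at 425 and 290.2 CPM. All 20 values from the 5 alternative classings stayed below 0. For each Nid1 UMI there were 1.54 Hspg2 UMIs (1.51 to 1.56) with PBS and 0.927 (0.909 to 0.945) with cGAMP, and this ratio was lower in each of the 4 classes.

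The bases before the Hspg2 and Nid1 starts are shown because these 2 genes are a contrast. Hspg2 was lower in every class, whereas Nid1 was nearly level over all ECs and higher in stalk-like ECs. RefSeq windows from 250 bases before to 50 bases after a start were matched for 7 of the 10 genes, and those of Lama4, Lamc1 and Nid2 were not. The printed parts end before the first annotated exon, at chr4:137468553-137468768 and chr13:13437352-13437550 of GRCm38.p6, both plus strand, with each GC box (GGGCGG on either strand) in capitals.
Hspg2 upstream: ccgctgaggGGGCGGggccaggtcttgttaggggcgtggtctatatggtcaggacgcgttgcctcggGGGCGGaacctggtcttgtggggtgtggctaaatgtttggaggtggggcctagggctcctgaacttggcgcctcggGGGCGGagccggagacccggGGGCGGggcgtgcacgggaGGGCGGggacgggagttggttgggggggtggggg
Nid1 upstream: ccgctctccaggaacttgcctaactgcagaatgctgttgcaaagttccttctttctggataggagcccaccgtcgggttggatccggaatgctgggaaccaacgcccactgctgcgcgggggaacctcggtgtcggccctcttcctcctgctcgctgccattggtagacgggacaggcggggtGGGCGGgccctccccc

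The Hspg2 stretch held 5 GC boxes and the Nid1 stretch 1. Col18a1 has 2 start-site windows, so the 7 genes have 8 windows of 300 bases, of which 6 held a GC box, compared with 35.7% of all 32851 windows. The windows of Col4a1 and Col4a2 overlap. The only GC box of the Col4a1 window lies in their shared start, so it is counted in both windows. A CCAAT box (CCAAT, either strand) was in 5 of the 8, compared with 37.4% of all windows, and the TATA box letters (TATAAA, either strand) in 0 of the 8, compared with 13.6%. Bases G and C made up 52.3% to 74.0% of the members' windows, beside a median of 52.7% over all windows. These matches describe the letters alone, and 0 of the members' GC boxes overlapped a CCAAT box.

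The 2 multiplexin collagens, Col15a1 and Col18a1, had different distributions. Col15a1 was at 231 CPM (228 to 234) in the PBS library and 269.5 CPM (265 to 274) in the cGAMP library, a log2 ratio of 0.22 (0.19 to 0.25), the highest of the 10 genes. It was the only one of the 10 that was highest in stalk-like ECs, at 327 CPM (314 to 340) in the PBS library, where the interval overlapped that of tip-like ECs at 310 CPM (303 to 318), and at 387 CPM (377 to 398) in the cGAMP library. After cGAMP it was lower in tip-like ECs, at 197 CPM (ratio -0.66, interval -0.73 to -0.58). It was higher in stalk-like (0.24), proliferative (0.34) and arterial ECs (0.62), the last from 151 to 232 CPM. The arterial value changed sign without integration of the libraries, when the class, then 369 PBS-treated and 144 cGAMP-treated cells, gave -0.37. With cells assigned by marker ranks instead of by cluster the arterial value was 0.66, and in the remaining alternative classings it was 0.51 to 0.63. The lower level in tip-like ECs was seen in both tip-like clusters, from 349 to 249 CPM in the cluster led by Gal and Chga and from 132 to 72.5 CPM in the cluster led by Pgf, Bnip3 and Ankrd1.

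Col18a1 was at 435 CPM (431 to 440) in the PBS library and 362 CPM (358 to 367) in the cGAMP library, a log2 ratio of -0.26 (-0.29 to -0.24). It was highest in arterial ECs, at 707 CPM (689 to 725) and 483 CPM (465 to 501), where its ratio was also lowest (-0.55). In tip-like ECs it was at 486 and 367 CPM, and in stalk-like ECs at 343 and 380 CPM, a ratio of 0.15 that was -0.02 with classes assigned by marker ranks. There were 0.531 Col15a1 UMIs (0.522 to 0.540) for each Col18a1 UMI with PBS and 0.744 (0.729 to 0.759) with cGAMP. In arterial ECs this ratio was 0.213 and 0.480, and in tip-like ECs 0.638 and 0.537.

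**Figure D2:**
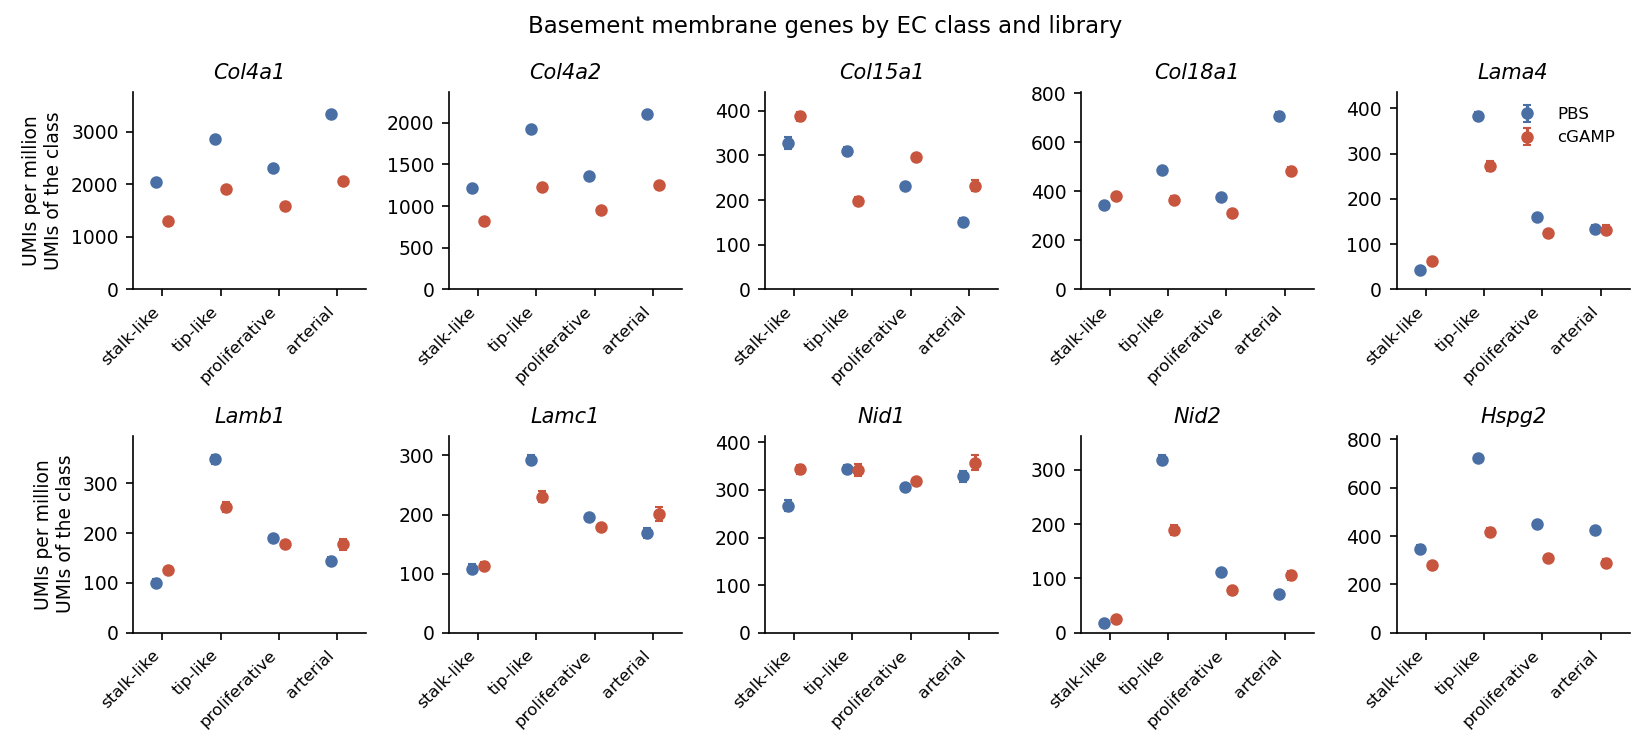
Level of each basement membrane gene in the 4 named EC classes, in CPM of the class, with 1 panel per gene, PBS in blue, cGAMP in red and bars for counting intervals. Col4a1, Col4a2 and Hspg2 are lower in red in every class, and Lama4, Lamb1, Lamc1 and Nid2 peak in tip-like ECs. Nid1 is nearly level across classes, and its red point is higher in stalk-like ECs.

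Levels of most members differed by EC class. Among the named classes of the PBS library, 6 of the 10 genes (Lama4, Lamb1, Lamc1, Nid1, Nid2 and Hspg2) were highest in tip-like ECs. Another 3 (Col4a1, Col4a2 and Col18a1) were highest in arterial ECs and 1 (Col15a1) in stalk-like ECs, while 9 of the 10 were lowest in stalk-like ECs. The unnamed clusters were not ranked. In the cluster led by Ramp3, Igfbp3 and Esm1, Nid1 (359 CPM with PBS and 394 CPM with cGAMP) was above every named class, as was Lamc1 with cGAMP (246 CPM). In the PBS library the intervals of the top classes overlapped for Nid1 (tip-like and arterial) and Col15a1 (stalk-like and tip-like). In the cGAMP library 5 were highest in tip-like ECs and 7 were lowest in stalk-like ECs, and the top intervals overlapped for Nid1 (arterial and stalk-like) and Col4a2 (arterial and tip-like). The shares of all genes that were highest or lowest in each class were not computed, so these counts have no background. The fold between the highest and lowest class had a median of 2.12 in the PBS library (1.29 for Nid1 to 16.9 for Nid2) and 1.77 in the cGAMP library (1.12 to 7.28). Between tip-like and stalk-like ECs, 6 of the 10 were at least 1.5-fold higher in tip-like ECs of the PBS library, as were 12.5% of 9642 genes, and 4 of the cGAMP library, as were 11.7% of 9358 genes. The number of genes highest in tip-like ECs was 5 to 7 in each library under all 5 other ways of forming the classes.

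The median ratio of the 10 genes was lowest in tip-like ECs. There all 10 genes were lower after cGAMP, beside 53.8% of all genes, with a median log2 ratio of -0.54 (-0.75 to -0.35) beside -0.03 for all genes. The ratio of Nid1 was -0.01 with an interval that included 0, and it was above 0 in 2 of the 5 alternative classings. Of the 10, 5 were at least 1.5-fold lower (Col4a1, Col4a2, Col15a1, Nid2 and Hspg2), beside 6.43% of all genes in that class, and 0 were 1.5-fold higher, beside 5.56%. The count was 3 to 5 over the alternatives. Col4a2 and Hspg2 were past 1.5-fold in each, but Col4a1 was not (-0.57 to -0.55) in 4 of them, Col15a1 not at resolution 0.3 (-0.46) or by marker ranks (-0.38), and Nid2 not without integration (-0.56). In proliferative ECs 8 genes were lower, beside 60.7% of all genes, and 2 higher, with a median of -0.32 (-0.53 to 0.05), and 0 passed 1.5-fold either way, beside 6.76% of all genes lower and 4.16% higher. In stalk-like ECs 3 genes were lower, beside 59.4% of all genes, and 7 higher, with a median of 0.20 (-0.56 to 0.46) that was -0.20 with classes assigned by marker ranks. Only Col4a1 was 1.5-fold lower there, beside 15.8% of all genes, and 0 were 1.5-fold higher, beside 7.85%. Without integration 0 genes were 1.5-fold lower and 3 (Lama4, Lamb1 and Nid2) were 1.5-fold higher, and by marker ranks Col4a1 and Col4a2 were lower. In arterial ECs 5 were lower, beside 56.9% of all genes, and 5 higher, with a median of 0.05 (-0.70 to 0.56) that was -0.22 without integration. Col4a1 and Col4a2 were 1.5-fold lower there, beside 12.7% of all genes, and Col15a1 1.5-fold higher, beside 7.89%. Hspg2 and Col18a1 were also 1.5-fold lower without integration and by marker ranks, and Col15a1 was short of 1.5-fold at resolution 0.3 (0.51), where Nid2 passed it (0.59). As the class differences were not tested, these counts describe 1 library against 1 library.

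**Figure D3:**
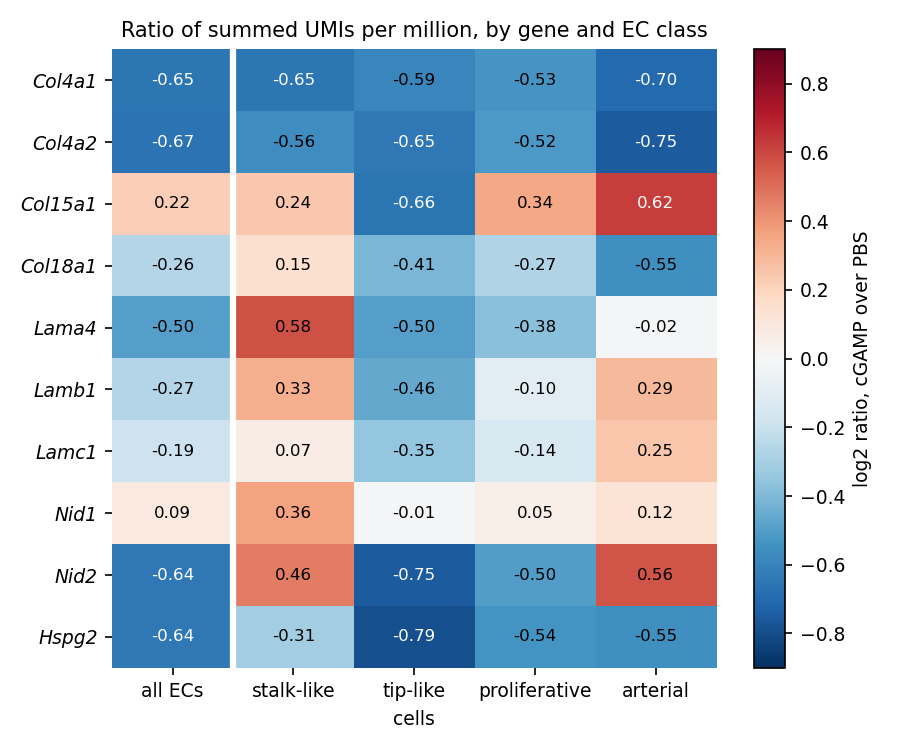
Log2 ratio of cGAMP over PBS of each basement membrane gene in all ECs and in each named EC class, with blue for lower and red for higher in the cGAMP library and the value printed in each cell. The tip-like column holds 10 values at or below -0.01, and the rows of Col4a1, Col4a2 and Hspg2 are blue in every column.

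Because Col4a1 and Col4a2 supplied most of the UMIs, the sum of the 10 genes was lower in every class even where most single genes were higher. Its log2 ratio was -0.57 in tip-like, -0.52 in arterial, -0.39 in proliferative and -0.32 in stalk-like ECs. In the unnamed cluster led by Ramp3, Igfbp3 and Esm1 (654 PBS-treated and 278 cGAMP-treated cells) it was -0.39, with 6 genes lower and 4 higher, beside 5155 of all 9242 genes lower. In the small cluster led by Igfbp5, Ctsh and Adamts8 (45 and 52 cells) it was -0.38, with 8 genes lower and 2 higher, beside 5431 of all 9736 genes lower. Nid2 there was at 22.7 and 6.34 CPM (22 and 9 UMIs, log2 ratio -1.84). Lama4 there was at 78.4 and 28.2 CPM (76 and 40 UMIs, -1.48). In the named stalk-like class these ratios were 0.46 for Nid2 and 0.58 for Lama4.

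The lower sum was seen across the distribution of cells, not in a few cells alone. The median PBS-treated EC had 61.3 UMIs of the 10 genes per 10000 UMIs (26.2 to 105 from the 5th to the 95th percentile), and the median cGAMP-treated EC 43.1 (18.6 to 76.6). The median cGAMP-treated EC was thus below the 25th percentile of PBS-treated ECs at 46.1. In tip-like ECs the medians were 76.0 and 52.0 (PBS 25th percentile 62.8), and in arterial ECs 71.6 and 49.9 (56.3), so the same held in both classes. In proliferative ECs the medians were 52.5 and 41.9 (41.2), and in stalk-like ECs 42.2 and 36.3 (31.0), both above that percentile. The interquartile ranges of the 2 libraries overlapped in each of these classes.

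**Figure D4:**
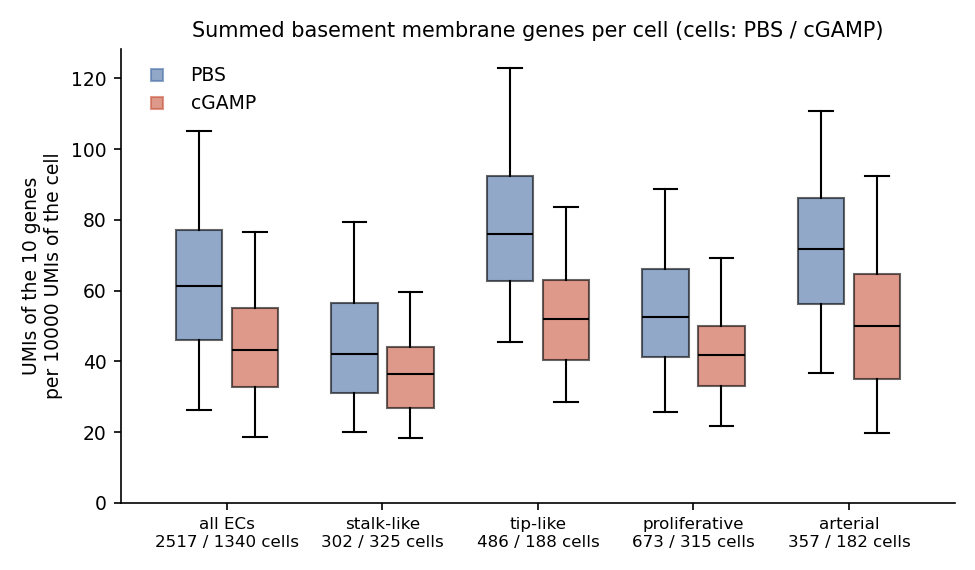
Summed UMIs of the 10 basement membrane genes per 10000 UMIs of a cell, by library and EC class. Boxes span the 25th to 75th percentiles of cells with the median as a line, and whiskers the 5th to 95th percentiles. The red cGAMP boxes sit lower than the blue PBS boxes in each class, by the widest margin in tip-like ECs (medians 76.0 and 52.0).

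Most ECs transcribed most of these genes at a depth of 5000 UMIs, to which each cell was thinned (70 PBS-treated and 13 cGAMP-treated cells were shallower and were left out). Col4a1 was detected in 99.6% of cells with PBS and in 98.8% with cGAMP. The lowest share was that of Nid2, at 36.7% (34.8 to 38.6, exact binomial) and 29.9% (27.5 to 32.5), and without thinning 71.6% and 72.3%, when cGAMP-treated cells were deeper. Hspg2 was found in 83.8% and 75.8%, and Lama4 in 49.98% and 43.2%, of the thinned cells. Col15a1 went the other way, with 51.8% (49.8 to 53.8) and 56.7% (53.9 to 59.4). For comparison, transcripts that ECs should lack reached 0.654% and 0.301% for the fibroblast collagen Col1a1, 2.41% and 0.904% for Col3a1, 2.41% and 0.754% for the pericyte gene Rgs5, and 2.17% and 6.03% for the myeloid gene Lyz2.

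Single cells with much of a member tended to have much of the others. Across the PBS-treated ECs the median Pearson r of the 45 pairs was 0.35 (0.08 to 0.83), beside 0.02 for all pairs of the 6045 genes, and across the cGAMP-treated ECs 0.41 (-0.03 to 0.81), beside 0.01. The cells of a library share its preparation, and each member was also correlated with the depth of the cell (r of 0.17 to 0.32 with PBS and 0.14 to 0.28 with cGAMP). The closest pair after Col4a1 and Col4a2 was Lama4 and Nid2 (0.70 with PBS and 0.62 with cGAMP), followed in the PBS library by Lama4 and Lamb1 (0.61). In the PBS library Col15a1 had r of 0.08 to 0.35 to the other members and Col18a1 0.08 to 0.39, and in the cGAMP library -0.03 to 0.23 and 0.11 to 0.41. Aplnr, the apelin receptor, was the closest gene of Col15a1 in both libraries.

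Outside the members, the 5 genes most like their sum across PBS-treated ECs were Cd93 (r = 0.60, and 0.61 in the cGAMP library), Cdh13 (0.55 and 0.48), Sparc (0.48 and 0.54), Sparcl1 (0.47 and 0.51) and Cdh5 (0.47 and 0.47). Most UMIs of the sum are of Col4a1 and Col4a2, so the list mainly reflects these genes. In the PBS library Cdh13 and Cd93 were the closest genes of both after each other, whereas Adamts7 was among the closest of Lama4 and Nid2. Cd93 encodes an EC surface glycoprotein, Cdh13 and Cdh5 encode cadherins, and Sparc encodes a secreted protein that binds collagen IV. All 5 were lower in the cGAMP library as well, from a log2 ratio of -0.18 for Cdh5 to -0.89 for Cdh13, which was at 330.4 and 179 CPM.

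Other genes of the basement membrane lay on both sides of 0. Of the 25 other matrix proteins on the list, 14 had at least 5 CPM, and 6 of these were lower and 8 higher, with a median log2 ratio of 0.14. Fn1, which encodes fibronectin, was at 215 and 60.5 CPM in the PBS and cGAMP libraries (ratio -1.83, interval -1.88 to -1.78), and it was lower in all 4 classes. Fbln5, an elastic fibre protein, was at 124 and 67.0 CPM (-0.89), and Sparc at 5730 and 3896 CPM (-0.56). In the other direction, Col13a1, a transmembrane collagen, was at 24.9 and 109 CPM (2.13, interval 2.06 to 2.20) and was higher in all 4 classes. Egfl7, a matrix-bound factor secreted by ECs, was at 1182 and 2122 CPM (0.85), and Emilin1 at 18.1 and 29.1 CPM (0.68). Among the other laminins and netrin 4, 3 of 9 had at least 5 CPM and all 3 were lower, with Lama3 (5.09 and 2.98 CPM) and Lamb2 past 1.5-fold. Of the other network collagens 1 of 7, Col8a1, passed 5 CPM, at 8.60 and 7.64 CPM.

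The lists of enzymes that build collagen and of receptors that hold cells to the membrane had medians below that of all genes. Of 17 genes for collagen folding, modification and cross-linking, 14 were lower, where 59.6% of all genes were, with a median log2 ratio of -0.24, and 2 passed 1.5-fold. These were Pxdn, which encodes the peroxidase that cross-links collagen IV, at 184 and 114 CPM (-0.69), and the lysyl hydroxylase gene Plod1, at 144 and 96.2 CPM (-0.59). The largest value in the other direction was that of the transglutaminase gene Tgm2, at 98.3 and 135 CPM (0.46). Of 15 receptor genes 13 were lower, with a median of -0.31. Itgb4, an integrin subunit that binds laminin, was at 31.0 and 16.2 CPM (-0.94), Itga9 at 28.4 and 18.9 CPM (-0.59), and the syndecan Sdc4 at 11.3 and 4.92 CPM (-1.20). Itgb1, the shared β subunit of most matrix integrins, was at 666 and 669 CPM (0.01).

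Genes that degrade matrix were divided, and their inhibitors were higher. Of 19 enzyme genes 7 were lower and 12 higher, with a median of 0.08. The protease genes Adamts4, at 126 and 229 CPM (0.85), and Adamts9, at 224 and 348 CPM (0.64), were among 4 past 1.5-fold, together with Adamts5 (9.51 and 15.0 CPM) and Ctss (0.869 and 6.03 CPM), a cathepsin of myeloid cells. All 8 inhibitor genes were higher, with a median of 0.45. Timp1, which encodes a metalloproteinase inhibitor, was at 89.0 and 250.1 CPM (1.49), Timp3, whose product binds to matrix, at 156 and 326 CPM (1.06), and Tfpi2 at 11.2 and 24.1 CPM (1.10). These lists were not tested as sets, and over all ECs the share of all genes past 1.5-fold was as given above.

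**Figure D5:**
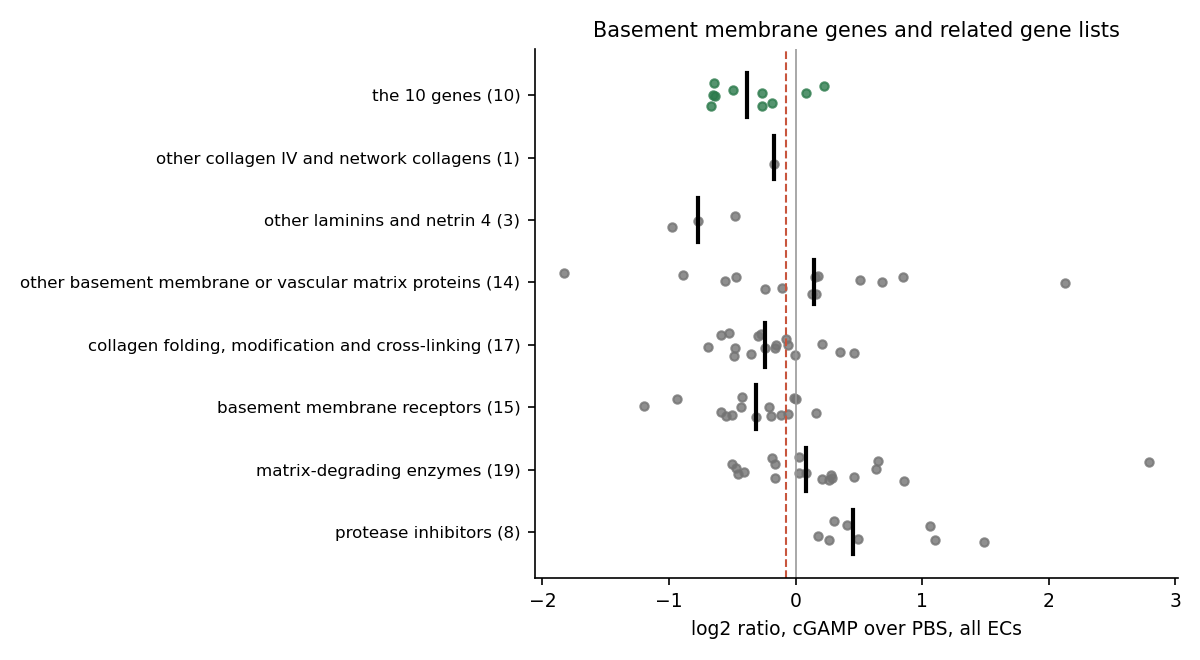
Log2 ratio of cGAMP over PBS over all ECs for the 10 basement membrane genes (green) and for genes of 7 related lists that reached 5 CPM in 1 library or both (grey, number in brackets). Black bars are list medians and the dashed red line is the median of all genes at -0.08. The median of the 10 genes is -0.38 and that of the 8 protease inhibitors 0.45, with Fn1 at -1.83 and Col13a1 at 2.13 as outlying matrix genes.

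Fibroblasts and mural cells also make basement membrane proteins, and their markers were scarce. The 7 fibroblast markers summed to 9.69 CPM in the PBS library and 4.32 CPM in the cGAMP library, with Col1a1 at 1.16 and 0.473 CPM and Pdgfra at 0.185 and 0 CPM. The 10 mural cell markers summed to 86.0 and 92.3 CPM, of which Kcnj8, Abcc9 and Tagln made up most, while Pdgfrb was at 0.391 and 0.189 CPM and Rgs5 at 5.46 and 1.75 CPM. By class the mural sum was 118 CPM with PBS and 194 CPM with cGAMP in tip-like ECs, 96.9 and 122 CPM in arterial ECs, 56.8 and 53.3 CPM in proliferative ECs, and 179 and 88.0 CPM in stalk-like ECs. Of the 10 leucocyte markers 8 were listed, summing to 15.2 and 41.1 CPM, with S100a9 at 0.271 and 9.96 CPM, Lyz2 at 5.21 and 12.6 CPM and Ptprc at 0.250 and 0.60 CPM. In tip-like ECs, where the 10 genes had their lowest median, the leucocyte sum was 17.98 and 104 CPM, and in the other classes it was 13.2 to 19.96 CPM with PBS and 26.3 to 38.9 CPM with cGAMP. In the 1633 PBS-treated and 453 cGAMP-treated ECs with no UMI of these 8 markers, the sum of the 10 genes had a log2 ratio of -0.48, the median ratio was -0.39, and the same 4 genes were past 1.5-fold. This choice also kept shallower cells, with median depths of 24908 and 29810 UMIs beside 29780 and 41178 in all ECs. Among tip-like ECs, 303 and 66 such cells remained, and the sum had a ratio of -0.50, the median was -0.48, 9 genes were lower and 3 (Col4a2, Nid2 and Hspg2) passed 1.5-fold. The 5 lymphatic EC markers summed to 18.05 and 45.02 CPM over all ECs, of which Lyve1 made up 10.2 and 43.6 CPM while Prox1 was at 2.01 and 0.994 CPM and Ccl21a at 5.35 and 0 CPM. In tip-like ECs the lymphatic sum was 17.8 and 83.7 CPM. The part of the mural and lymphatic transcripts in the tip-like values was not tested. In the 1739 PBS-treated and 1119 cGAMP-treated ECs with no UMI of 8 fibroblast and mural markers, the sum of the 10 genes had a log2 ratio of -0.47 and the median ratio was -0.34.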

How the data were processed

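The data are single-cell RNA-seq (10x Chromium, UMI counts from transcript 3′ ends) of tumour ECs sorted from 1 PBS-injected and 1 cGAMP-injected mouse. Cell Ranger 3.0.0 and Seurat 3.1.1 are named in the submitters' processing notes, the methods and labels name different kit versions (3 and 2), and the authors kept cells with at least 500 genes and under 10% mitochondrial UMIs. The deposited values are the natural log of 1 plus UMIs per 10000 UMIs of the cell. Dividing the back-transformed values of a cell by their smallest step gave whole UMIs for 100% of values (tolerance 0.01).

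UMIs were summed by library or EC class and scaled to CPM, with exact Poisson intervals, exact conditional intervals for ratios, and an order-statistic interval for medians. A call means a 1.5-fold difference among genes that reached 5 CPM in 1 library or both. With 1 library per treatment no p-value was computed. UMIs are counted once per molecule at the 3′ end and were not scaled to gene length, so a ratio between genes is a ratio of UMIs, compared between libraries or classes only. Clusters were formed in Seurat 5.3.0 under R 4.3.3 (integration anchors, 30 principal components, resolution 0.5) on 1746 of 2500 variable genes, leaving out the 10 genes, the related lists and genes that differed 2-fold between libraries. A cluster was given the class with the most markers raised 2-fold, where at least 3 were raised. It was left unnamed if another class had more markers among its 10 leading genes. A cluster of low depth also needed 1 or more markers of its class there. Classes, folds and rebuilt cluster names may differ from those of the study. No doublet caller was run. A single cell barcode occurred in both libraries (1 of 2517 and 1340). Scripts were tested on simulated data.

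The 10 genes, the related lists and the markers were chosen with earlier results of these data known. Named genes were the 10, up to 3 genes per list and direction with at least 20 CPM and any in counts of 5 or fewer, and the 5 genes most correlated with the sum. Alternatives changed the scaling, the cells kept, the thinning, the class proportions and the classes. The ratios of single genes within classes under alternative classings, and the cells without leucocyte UMIs, were added after seeing the data. Coordinates are from GENCODE vM21 (GRCm38).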

Additional observations from a re-analysis of the deposited data

Results flagged for a closer look

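In 6 of the 10 basement membrane genes the cGAMP over PBS log2 ratio was below 0 in 1 EC class and above 0 in another, with counting intervals off 0 on both sides. The share of all genes that meet this rule was not computed, so the count describes the 10 genes only. The differences between classes were not tested, since each class has 1 library per treatment. The widest gap was that of Nid2, 1.31 on the log2 scale between arterial ECs (0.56) and tip-like ECs (-0.75), followed by Col15a1 with 1.28 between arterial (0.62) and tip-like ECs (-0.66). Lama4 differed by 1.07 between stalk-like (0.58) and tip-like ECs (-0.50), and Lamb1 by 0.79 between the same classes. Col18a1 differed by 0.70 between stalk-like (0.15) and arterial ECs (-0.55), and Lamc1 by 0.59 between arterial (0.25) and tip-like ECs (-0.35). The stalk-like side of Lama4, Lamb1 and Col18a1 was below 0 when cells were assigned by marker ranks, and the arterial side of Col15a1 was below 0 without integration, whereas the arterial values of Nid2 and Lamc1 were above 0 under each of the 5 alternative classings.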

How the results depend on the processing

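The median log2 ratio of the 10 genes over all ECs lay between -0.43 and -0.25 under the 9 alternatives, each of the 10 kept its sign in all of them, and 0 genes were 1.5-fold higher. The count of genes at least 1.5-fold lower, 4, was 1 with median-of-ratios scaling, 3 as a mean over cells (without Nid2, -0.54), 2 with class proportions held equal and 2 with cells thinned to 5000 UMIs, all 4 being within 1.6-fold. The summed ratio, -0.50, was -0.48 as a mean over cells, -0.43 with median-of-ratios scaling, -0.45 with class proportions held equal, -0.49 with at most 5% mitochondrial UMIs, -0.47 in cells without fibroblast or mural UMIs, -0.48 in cells without leucocyte UMIs (an alternative added after seeing the data) and -0.48 after thinning. Holding class proportions equal moved Nid2 most, from -0.64 to -0.32, and Lama4 from -0.50 to -0.25. Of the 200 ratios of single genes within classes under other classings, 1 past 1.5-fold changed sign, that of Col15a1 in arterial ECs, to -0.37 without integration. Ratios short of 1.5-fold changed sign more often. In stalk-like ECs by marker ranks this held for Nid2 (0.46, and -0.44), Lama4 (0.58, and -0.20), Lamb1, Lamc1 and Col18a1. Near 0, Lama4 in arterial ECs and Nid1 in tip-like ECs also changed sign. Medians by class kept their sign except in stalk-like ECs (0.20, and -0.20 by marker ranks) and arterial ECs (0.05, and -0.22 without integration). The cause of these shifts was not tested. No paired analysis was possible because each treatment has 1 library. Depth is not the limit for the 10 genes over all ECs, where each had over 5000 UMIs per library, but differences between mice were not measured.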

Other observations

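Both tip-like clusters differed in their basement membrane genes. In the PBS library the cluster led by Gal and Chga (386 cells) had more Col15a1 (349 and 132 CPM), Hspg2 (768 and 513 CPM), Lamb1 (367 and 257 CPM) and Lamc1 (306 and 229 CPM) than the cluster led by Pgf, Bnip3 and Ankrd1 (100 cells), while Nid2 was at 319 and 314 CPM and Lama4 at 388 and 364 CPM. After cGAMP, Nid2 was at 207 CPM in the first (129 cells, log2 ratio -0.63) and 147 CPM in the second (59 cells, -1.09), and Lama4 at 287 and 236 CPM. Nid1 was at 350 and 320 CPM in the PBS library and at 352 and 317 CPM in the cGAMP library.

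In the proliferative class the members were at similar levels in the cluster led by Ube2c and Cenpf and in that led by Ung and Hells, which hold genes of mitosis and of DNA replication. Col4a1 was at 2315 and 2256 CPM in the PBS library and at 1599 and 1573 CPM in the cGAMP library, and Col15a1 at 230.3 and 238 CPM and at 281 and 318 CPM. Nid2 was at 117 and 94.3 CPM in the PBS library and at 80.6 and 74.8 CPM in the cGAMP library.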
